A study of Mus musculus with 24 samples.

Results

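Heat shock chaperones were followed by RNA-seq in mouse bone marrow-derived macrophages (BMDMs) through 10 genes: the inducible HSP70 genes Hspa1a and Hspa1b, the small heat shock protein gene Hspb1, the J-domain cochaperone gene Dnajb1, the HSP110 gene Hsph1, the cytosolic HSP90 gene Hsp90aa1, the constitutive HSC70 gene Hspa8, the mitochondrial chaperonin genes Hspd1 (HSP60) and Hspe1 (HSP10), and Hsf1, the transcription factor that drives the heat shock response. These 10 genes were taken by symbol from the 18063 genes listed for M1 libraries and the 17786 listed for M2 libraries, and all 10 were listed in all 24 libraries. The set was chosen by measured values, namely the low FPKM of Hspa1a, Hspa1b and Hspb1 in dopamine-treated wild-type M1 BMDMs, so M1 comparisons that involve wild-type cells are described without a test.

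The cells came from C57BL/6 mice aged 10 weeks that were wild type (WT) or lacked the dopamine receptor DRD5 in the whole body through CRISPR-Cas9 deletion (DRD5-/-). BMDMs were stimulated for 12 h with 100 ng/ml LPS and 50 ng/ml IFN-γ (M1) or with 10 ng/ml IL-4 and 10 ng/ml IL-13 (M2), with or without dopamine (DA), which makes 8 groups of 3 libraries. The labels give no dose of DA, and the study names 20 μM for most of its DA treatments of BMDMs. The study grew BMDMs from tibia and femur and the labels give bone as the tissue, while the growth text of the labels names colon. No source says whether the 3 libraries of a group came from separate mice or cultures, so the p-values measure the spread between libraries, which may be technical. All 8 groups received a stimulus, and no unstimulated or heat-shocked cells were among the libraries.

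Heat shock proteins are molecular chaperones that bind unfolded proteins and help them to fold, to stay soluble or to be degraded. HSP70 works in cycles of ATP hydrolysis that J-domain proteins such as Dnajb1 start and nucleotide exchange factors such as Hsph1 end, and it passes some clients on to HSP90. In unstressed cells HSF1 is held inactive by chaperones; when unfolded proteins occupy them, HSF1 forms trimers, binds heat shock elements in DNA and raises the transcription of Hspa1a, Hspa1b, Hspb1, Dnajb1 and others, whereas Hspa8 is made at a high level without stress.

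The deposited values are FPKM, fragments scaled to transcript length and library size, which are corrected for length and can be compared between genes. They summed to between 476187 and 503799 per library, and no read counts or depths were given. The 8 macrophage markers, among them Adgre1, Csf1r and Lyz2, were at 1 FPKM or more in all 24 libraries. The 8 markers of LPS and IFN-γ stimulation summed to between 6468 and 6942 FPKM in M1 and to between 17.8 and 27.3 FPKM in M2, and the 8 of IL-4 and IL-13 stimulation to between 128.2 and 241.9 FPKM in M1 and to between 470.0 and 1640 FPKM in M2. Drd5, the deleted gene, had no row among the genes listed for M1, and 10 of the 12 M2 libraries had it at 0, with a highest value of 0.06 FPKM in untreated WT cells, so it could not check the genotypes. In bulk RNA, fewer cells of a type and less RNA per cell cannot be told apart.

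**Figure D1:**
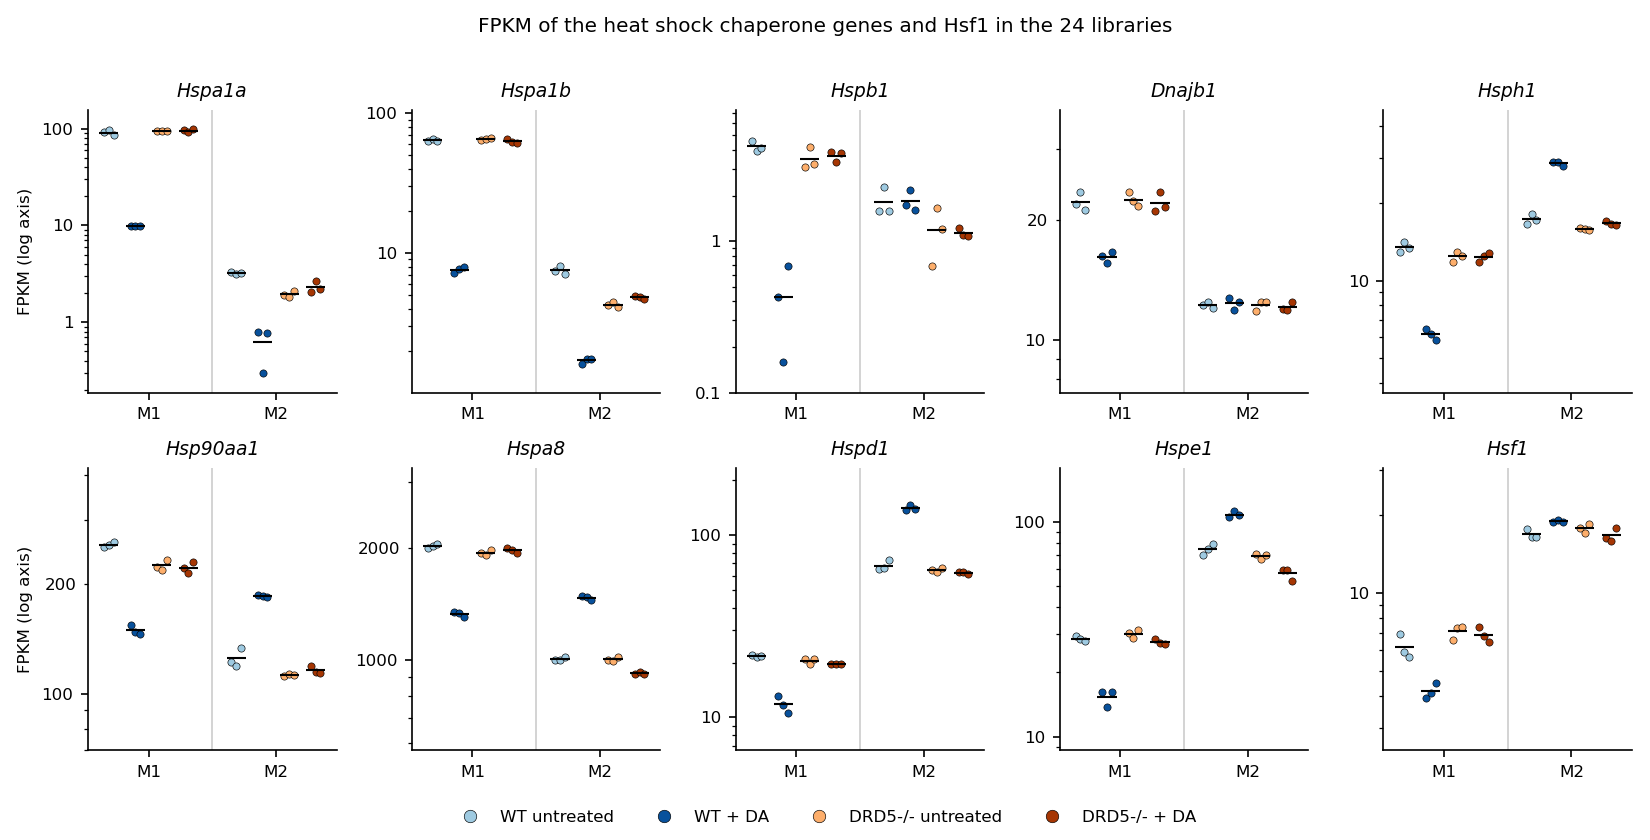
FPKM of the 10 genes in the 24 libraries, on a log axis of its own for each gene. Each point is a library, the horizontal line is the mean of the 3 libraries of a group, and M1 stands left of the grey line and M2 right of it. In M1 the 3 libraries of DA-treated WT cells lay below the other 9 for all 10 genes, and in M2 they lay below the other 9 for Hspa1a and Hspa1b and above the other 9 for Hsph1, Hsp90aa1, Hspa8, Hspd1, Hspe1 and Hsf1.

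Hspa1a and Hspa1b, which encode near-identical stress-inducible HSP70 proteins, were far lower in DA-treated than in untreated WT M1 cells. Hspa1a was at 91.33, 96.04 and 86.36 FPKM in the untreated WT M1 libraries and at 9.77, 9.96 and 9.91 FPKM in the DA-treated ones. In DRD5-/- M1 cells it was at 93.68, 93.81 and 94.74 FPKM without DA and at 96.34, 92.48 and 98.15 FPKM with DA. The DA-treated WT libraries thus stood alone, and the other 3 M1 groups overlapped. In WT cells the mean of Hspa1a without DA was 9.24 times that with DA (log2 change −3.08, SE 0.0359, on the log2(FPKM + 1) scale that is used for all changes below). Hspa1b had the same pattern at a lower level, with 63.26, 65.59 and 63.35 FPKM in untreated and 7.17, 7.65 and 7.90 FPKM in DA-treated WT M1 cells (log2 change −2.92, SE 0.0360). In DRD5-/- M1 cells Hspa1b ranged from 61.21 to 66.27 FPKM over the 6 libraries, with no gap between the libraries with and without DA.

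The pair lie on the minus strand of chromosome 17 (GRCm38), Hspa1b at chr17:34956436-34959238 and Hspa1a at chr17:34969190-34972156, with 9951 bases between them. Each has 1 exon, of 2803 and 2967 bases. Of all stretches of 100 bases in the Hspa1a transcript, 47.1% also occur in the Hspa1b transcript, and of those in Hspa1b, 49.9% occur in Hspa1a. How reads that match both genes were shared out is not given in the sources used here, so the split between them and their sum are both uncertain to that extent. The summed FPKM of the pair averaged 155.3 ± 5.99 without DA and 17.5 ± 0.456 with DA in WT M1 cells, and 159.5 ± 1.45 without and 158.7 ± 3.23 with DA in DRD5-/- M1 cells (SD, n = 3 each). The log2 change of the sum in WT M1 cells was −3.08.

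The 250 bases before the start sites of Hspa1a and Hspa1b, from RefSeq on GRCm38.p6, are shown because 247 of the 250 bases are the same (98.8%). Any part of these bases in the changes of the pair was not tested. They run 5′ to 3′ on the minus strand, at chr17:34972157-34972406 for Hspa1a and chr17:34959239-34959488 for Hspa1b, and capitals mark the heat shock element letters GAANNTTC, whose first base is at −104 from the start site in both.
Hspa1a: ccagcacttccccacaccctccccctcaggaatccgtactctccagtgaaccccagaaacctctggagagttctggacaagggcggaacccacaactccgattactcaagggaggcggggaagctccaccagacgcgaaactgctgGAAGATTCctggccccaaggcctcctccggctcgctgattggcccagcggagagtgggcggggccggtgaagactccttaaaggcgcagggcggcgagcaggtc
Hspa1b: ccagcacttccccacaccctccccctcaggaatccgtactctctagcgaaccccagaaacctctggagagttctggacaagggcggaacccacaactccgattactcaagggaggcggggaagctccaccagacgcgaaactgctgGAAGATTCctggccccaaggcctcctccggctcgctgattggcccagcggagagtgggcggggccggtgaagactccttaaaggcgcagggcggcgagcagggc

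Hspb1, a small heat shock protein that holds unfolded proteins in solution, was the third gene with a difference of this order in WT M1 cells, where the mean without DA was 9.88 times that with DA. It was at 4.61, 3.93 and 4.11 FPKM without DA and at 0.43, 0.16 and 0.69 FPKM with DA. All 3 DA-treated libraries were thus below 1 FPKM, and the gene passed the filter on low values only through the other groups. Its log2 change was −1.89 (SE 0.119) and, with a pseudocount of 0.1 in place of 1, −3.17. In DRD5-/- M1 cells Hspb1 was at 3.08, 4.17 and 3.21 FPKM without DA and at 3.87, 3.35 and 3.80 FPKM with DA, and these groups overlapped. Hspb1 lies on the plus strand at chr5:135887919-135889563 and has 3 exons. Its upstream bases at chr5:135887669-135887918, run on the plus strand and are shown because they hold a pair of heat shock elements GAANNTTC, at −117 and −97 from the start site, in capitals.
Hspb1: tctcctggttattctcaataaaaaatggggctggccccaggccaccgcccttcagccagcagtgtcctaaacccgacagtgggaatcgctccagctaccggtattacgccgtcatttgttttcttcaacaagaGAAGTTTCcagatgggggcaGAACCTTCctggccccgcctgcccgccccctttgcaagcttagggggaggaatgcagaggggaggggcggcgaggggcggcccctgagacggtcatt

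Dnajb1 and Hsph1, which work with HSP70, were also lower in DA-treated WT M1 cells, by less than the inducible pair. Dnajb1 was at 21.92, 23.41 and 21.15 FPKM without DA and at 16.23, 15.56 and 16.60 FPKM with DA (log2 change −0.43, SE 0.0488). Hsph1 was at 12.88, 14.17 and 13.38 FPKM without DA and at 6.47, 6.19 and 5.86 FPKM with DA (log2 change −1.01, SE 0.0502). In DRD5-/- M1 cells Dnajb1 stayed between 21.01 and 23.48 FPKM and Hsph1 between 11.79 and 12.93 FPKM over both treatments.

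The abundant cytosolic chaperones had the largest differences in FPKM, with log2 changes between those of Dnajb1 and Hsph1. Hspa8, the HSC70 that all cells make, was at 1994.64, 2020.81 and 2050.00 FPKM in untreated and at 1347.70, 1337.16 and 1307.13 FPKM in DA-treated WT M1 cells (log2 change −0.60, SE 0.0240). Hsp90aa1, the HSP90 that stabilises kinases and steroid receptors, was at 253.66, 256.00 and 262.27 FPKM without DA and at 154.21, 148.12 and 146.35 FPKM with DA (log2 change −0.78, SE 0.0322). Hspa8 alone made up 79.9% of the summed FPKM of the 10 genes in untreated WT M1 cells and 85.8% in DA-treated ones. The sum of the 10 genes was 2531 ± 28.1 FPKM without DA and 1552 ± 25.0 FPKM with DA (SD, n = 3 each), or 0.520% and 0.321% of all FPKM.

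Hspd1 and Hspe1 encode the barrel and the lid of the mitochondrial chaperonin. Hspd1 was at 21.98, 21.46 and 21.85 FPKM in untreated and at 13.17, 11.62 and 10.53 FPKM in DA-treated WT M1 cells (log2 change −0.84, SE 0.0564). Hspe1 was at 29.34, 28.47 and 28.00 FPKM without DA and at 16.18, 13.81 and 16.07 FPKM with DA (log2 change −0.86, SE 0.0519). The ratio of Hspd1 to Hspe1, ran from 0.749 to 0.780 without and from 0.655 to 0.841 with DA, so the groups overlapped in it. Hsf1 was at 6.92, 5.88 and 5.64 FPKM without DA and at 3.92, 4.08 and 4.47 FPKM with DA (log2 change −0.47, SE 0.0721).

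All 10 genes were therefore lower, with no overlap and by at least 1.2-fold, in DA-treated than in untreated WT M1 cells, beside 12.8% of the 10040 genes tested in M1 that met the same rule in the same direction (18.7% in either direction). The genes were chosen with this contrast in view, so nothing is read from the count. The median log2 change of the 10 genes was −0.85 and that of all tested genes −0.067. With the libraries rescaled by the median of ratios of their genes, 861 genes were higher and 770 lower by this rule in place of 588 and 1285, and all 10 members were still lower.

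**Figure D2:**
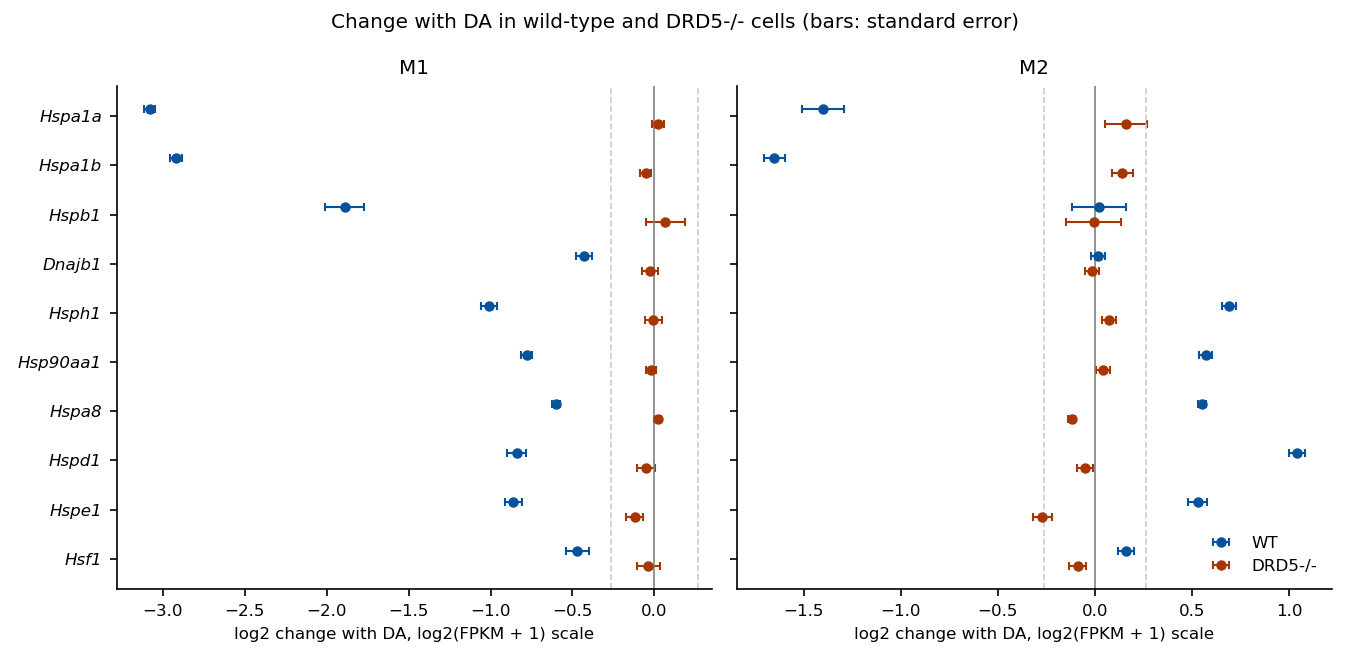
Log2 change with DA of the 10 genes in WT cells (blue) and DRD5-/- cells (brown), on the log2(FPKM + 1) scale, in M1 at the left and M2 at the right. Points are differences of group means of 3 libraries, bars their standard errors, and dashed lines a 1.2-fold change. In M1 the WT changes run from −3.08 for Hspa1a to −0.43 for Dnajb1 and the DRD5-/- changes from −0.12 to 0.065, and in M2 the WT changes run from −1.65 for Hspa1b to 1.04 for Hspd1. The horizontal axes differ between the panels.

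In DRD5-/- M1 cells no member was called with DA. This contrast compares no library of WT cells, though these entered the shared estimate of the spread, and limma on log2(FPKM + 1) called a gene at an adjusted p under 0.001, by the Benjamini-Hochberg method over all genes tested, with a change of at least 1.2-fold. It called 0 of the 10040 genes (0%), 569 of which had an unadjusted p under 0.05, among them 1 member, Hspe1. Hspe1 was at 30.27, 28.91 and 31.28 FPKM without DA and at 28.61, 27.28 and 26.93 FPKM with DA (log2 change −0.12, SE 0.0519, limma adjusted p = 0.851). For Hspa1a the log2 change was 0.023, with a 95% interval from −0.05 to 0.10, and for Hspa1b it was −0.054, with an interval from −0.13 to 0.02. The widest interval among the 10, that of Hspb1, ran from −0.19 to 0.32.

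Among M1 cells that received DA, all 10 genes were lower in WT than in DRD5-/- ones with no overlap, beside 15.2% of all tested genes in that direction (22.8% in either), and the log2 differences ran from −3.15 for Hspa1a to −0.42 for Dnajb1. These libraries also belong to the contrasts above, so this is not a second observation. The difference between the changes with DA in WT and in DRD5-/- cells was −3.11 (SE 0.0507) for Hspa1a, −2.87 (SE 0.0509) for Hspa1b, −1.95 (SE 0.168) for Hspb1, and between −1.01 and −0.41 for the other members, on the log2 scale. Without DA the genotypes differed little. No member differed by at least 1.2-fold without overlap between untreated DRD5-/- and WT M1 cells, a rule that 2.31% of all genes met. Hsp90aa1 was the member whose untreated genotypes were furthest apart for their spread, at 223.48, 219.51 and 234.13 FPKM in DRD5-/- cells and 253.66 FPKM or more in WT cells (log2 difference −0.19, SE 0.0322).

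Several marker sums moved between the M1 groups. The 6 dendritic cell markers summed to between 21.7 and 22.6 FPKM in DA-treated WT M1 cells and to between 38.5 and 43.3 FPKM in the other 9 libraries. Most of that sum was Ccr7. Xcr1 ran from 1.48 to 2.03 FPKM in untreated WT cells, from 0.87 to 1.03 FPKM in DA-treated WT cells and above 1.03 FPKM and up to 1.80 FPKM in DRD5-/- cells, Clec9a went from between 0.40 and 0.43 FPKM to between 0.22 and 0.33 FPKM with DA in WT cells, and Flt3, Zbtb46 and Cd209a stayed below 1 FPKM in all 12 M1 libraries. The 8 neutrophil markers summed to between 63.7 and 83.1 FPKM in DA-treated and between 44.7 and 56.6 FPKM in untreated WT cells, and to between 14.7 and 20.1 FPKM in DRD5-/- cells, with Elane at 0 and Ly6g and Mpo below 1 FPKM in all 12 libraries. S100a8 ran from 22.2 to 26.9 FPKM in untreated and from 39.0 to 43.4 FPKM in DA-treated WT cells, and from 13.8 to 19.1 FPKM in DRD5-/- cells. The other 4 were above 1 FPKM in all WT and below 1 FPKM in all DRD5-/- libraries, with S100a9 between 9.65 and 21.0 FPKM against 0.81 FPKM or less, and Ngp between 6.05 and 12.4 FPKM against 0.17 FPKM or less. The 5 listed T cell markers summed to at most 3.28 FPKM, the 6 B cell markers to at most 0.760 FPKM, the 7 fibroblast markers to at most 5.31 FPKM and the 4 listed mast cell and basophil markers to at most 0.190 FPKM in any M1 library. The macrophage markers summed to between 7946 and 8017 FPKM in DA-treated WT cells and to between 7048 and 7471 FPKM in the others. The 8 markers of IL-4 and IL-13 stimulation summed to between 231.2 and 241.9 FPKM in DA-treated WT cells and to between 128.2 and 135.8 FPKM in the other groups. Most of the higher sum was Arg1, which went from at most 64.7 to at least 175.6 FPKM with DA in WT cells, and Mrc1 was higher too. Ccl22 went from at least 53.4 to at most 35.6 FPKM, and Pdcd1lg2 was lower too. The 8 markers of LPS and IFN-γ stimulation changed little in sum but went both ways with DA in WT cells. Il12b went from at least 19.94 to at most 4.69 FPKM and Il6 from at least 21.68 to at most 13.61 FPKM. Nos2, Cxcl9, Cxcl10 and Cd86 were lower too. Tnf went from at most 107.27 to at least 143.15 FPKM, and Gbp2 from at most 1901.09 to at least 2201.41 FPKM. The part of any of these in the levels of the chaperones was not tested.

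In IL-4 and IL-13-stimulated M2 cells, DA changed 7 of the 10 genes in WT cells, and in 2 directions. Hspa1a and Hspa1b fell, whereas Hsph1, Hsp90aa1, Hspa8, Hspd1 and Hspe1 rose. The background was high, since limma called 46.3% of the 10735 genes tested in M2, 25.9% as higher and 20.4% as lower. The 7 of 10 are to be read against that share. The low values that chose the set were in M1 libraries, but members and comparisons were chosen with earlier results of these data known.

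Hspa1a was low in all M2 cells, at 3.30, 3.15 and 3.23 FPKM in untreated and at 0.79, 0.30 and 0.78 FPKM in DA-treated WT cells. The groups did not overlap, and all 3 DA-treated WT libraries were below 1 FPKM, so the gene passed the filter on low values only through the other groups. The log2 change was −1.40 (SE 0.108, limma adjusted p = 3.09e-08), and with a pseudocount of 0.1 it was −2.29 (limma adjusted p = 6.58e-07). Hspa1b was at 7.44, 8.07 and 7.08 FPKM without DA and at 1.61, 1.76 and 1.75 FPKM with DA (log2 change −1.65, SE 0.0535, limma adjusted p = 2.33e-12). The sum of the pair went from 10.8 ± 0.455 to 2.33 ± 0.243 FPKM (SD, n = 3 each), a log2 change of −1.82 (limma adjusted p = 1.38e-12).

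The largest rise among the members was that of Hspd1. Hspd1 was at 65.08, 65.88 and 73.26 FPKM in untreated and at 137.10, 147.12 and 139.82 FPKM in DA-treated WT M2 cells, a ratio of means of 2.08 (log2 change 1.04, SE 0.0410, limma adjusted p = 1.83e-11). Its partner Hspe1 was at 70.11, 75.01 and 78.55 FPKM without DA and at 105.13, 111.72 and 107.32 FPKM with DA (log2 change 0.53, SE 0.0490, limma adjusted p = 2.14e-07). Every DA-treated library was above every untreated one for both genes. The ratio of Hspd1 to Hspe1 was 0.913 ± 0.0302 without and 1.31 ± 0.00776 with DA in WT cells, and 0.932 ± 0.0210 and 1.09 ± 0.0617 in DRD5-/- cells (SD, n = 3 each), and in neither genotype did the libraries with and without DA overlap in it.

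Hspd1 and Hspe1 stand head to head on chromosome 1, with Hspe1 on the plus strand from position 55088132 and Hspd1 on the minus strand. The first listed transcripts of the pair start 107 bases apart, though a longer form of Hspd1, which starts at 55088243, covers that stretch and the first bases of Hspe1. The sources used here do not say whether the libraries kept strand, so reads in that overlap may belong to either gene. The 30 bases at chr1:55088053-55088082, on the plus strand, are shown because they hold the overlapping heat shock elements (capitals) that both genes share between their starts.
Hspd1-Hspe1: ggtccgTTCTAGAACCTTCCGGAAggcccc

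Hspa8, Hsp90aa1 and Hsph1, of the cytosol, rose with DA in WT M2 cells as well. Hspa8 was at 1001.94, 999.01 and 1020.02 FPKM without DA and at 1485.69, 1478.13 and 1449.87 FPKM with DA (log2 change 0.55, SE 0.0195, limma adjusted p = 6.63e-12). Hsp90aa1 was at 122.57, 118.84 and 133.51 FPKM without DA and at 186.51, 186.16 and 184.35 FPKM with DA (log2 change 0.57, SE 0.0345, limma adjusted p = 2.08e-09). Hsph1 was at 16.61, 18.19 and 17.16 FPKM without DA and at 28.89, 28.92 and 28.03 FPKM with DA (log2 change 0.69, SE 0.0350, limma adjusted p = 2.81e-10). In each of these the untreated and DA-treated libraries were apart.

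Dnajb1, Hspb1 and Hsf1 were not called in WT M2 cells. Dnajb1 was at 12.25, 12.43 and 12.04 FPKM without DA and at 12.77, 11.93 and 12.44 FPKM with DA, a log2 change of 0.015 with a 95% interval from −0.06 to 0.09. Hspb1 was at 1.57, 2.26 and 1.57 FPKM without DA and at 1.73, 2.16 and 1.61 FPKM with DA, a log2 change of 0.021 with an interval from −0.28 to 0.32. The groups overlapped for both. Hsf1 was at 17.68, 16.50 and 16.45 FPKM without DA and at 18.83, 19.15 and 18.93 FPKM with DA, groups that did not overlap, but its log2 change of 0.16 (SE 0.0434, limma adjusted p = 0.00414) was below the 1.2-fold limit.

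In DRD5-/- M2 cells no member was called with DA, beside 4.02% of all genes. Hspa1a was at 1.93, 1.83 and 2.10 FPKM without DA and at 2.04, 2.66 and 2.19 FPKM with DA, which overlapped (log2 change 0.16, 95% interval −0.08 to 0.39). Hspa1b was at 4.23, 4.48 and 4.11 FPKM without DA and at 4.93, 4.83 and 4.68 FPKM with DA, without overlap (log2 change 0.14, limma adjusted p = 0.059). Hspe1 came nearest to a call, at 70.67, 67.36 and 69.72 FPKM without DA and at 59.96, 59.74 and 52.80 FPKM with DA (log2 change −0.27, SE 0.0490, limma adjusted p = 0.00118), and it passed with median-of-ratios scaling (log2 change −0.29, limma adjusted p = 0.000456). Hspa8 had a limma adjusted p of 0.00035 at a log2 change of −0.12, below the 1.2-fold limit. At an unadjusted p under 0.05, 3 of the 10 members and 4570 of the 10735 genes differed.

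Tested directly, the change with DA differed between WT and DRD5-/- M2 cells for 7 of the 10 genes, beside 43.2% of all genes. The difference in log2 change was −1.80 for Hspa1b (SE 0.0756, limma adjusted p = 8.76e-11) and −1.55 for Hspa1a (SE 0.153, limma adjusted p = 6.29e-07). It was 1.09 for Hspd1 (SE 0.0579, limma adjusted p = 9.79e-10), 0.80 for Hspe1 (SE 0.0693, limma adjusted p = 1.72e-07), 0.67 for Hspa8, 0.62 for Hsph1 and 0.53 for Hsp90aa1. The difference of Hsf1 was 0.25 (SE 0.0614, limma adjusted p = 0.0025), and those of Dnajb1 and Hspb1 were both 0.029, with 95% intervals from −0.08 to 0.14 and from −0.40 to 0.46. These 7 genes were also called between the DA-treated genotypes, beside 49.7% of all genes, with log2 differences (WT minus DRD5-/-) from −1.10 for Hspa1b to 1.17 for Hspd1. The same libraries enter the other M2 contrasts, so this is not a second observation.

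Untreated DRD5-/- and WT M2 cells differed in 1 member, beside 5.51% of all genes. Hspa1b was at 4.23, 4.48 and 4.11 FPKM in untreated DRD5-/- and at 7.08 FPKM or more in untreated WT cells (log2 difference −0.69, SE 0.0535, limma adjusted p = 4.62e-07). Hspa1a was lower too, without overlap, with a highest value of 2.10 FPKM in DRD5-/- and a lowest of 3.15 FPKM in WT cells, but was not called (log2 difference −0.52, SE 0.108, limma adjusted p = 0.00299). With only these 2 groups in the fit it was called (limma adjusted p = 0.000328). For both genes the order of the M2 groups was thus untreated WT, DA-treated DRD5-/-, untreated DRD5-/- and DA-treated WT cells, from highest to lowest. Hspa1b did not overlap between any neighbours in that order, and Hspa1a overlapped between the 2 DRD5-/- groups.

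Marker sums differed between the M2 groups too. The macrophage markers summed to between 8472 and 8510 FPKM in DA-treated WT cells and to between 10779 and 11389 FPKM in the other 9 libraries, with Lyz2 at 4779 FPKM or below against 6741 FPKM or above. The 8 markers of IL-4 and IL-13 stimulation summed to between 1604 and 1640 FPKM in DA-treated WT cells and to between 470.0 and 581.5 FPKM in the others. They went both ways. Arg1 went from at most 29.9 to at least 586.1 FPKM with DA in WT cells, and Mgl2, Mrc1 and Chil3 rose too. Retnla went from at least 102.7 to at most 30.3 FPKM, and Ccl22 and Pdcd1lg2 fell too. Ccl17 stayed below 1 FPKM in all M2 libraries. The 7 fibroblast markers, 6 of which were at 1 FPKM or more in all M2 libraries, summed to between 105.3 and 106.4 FPKM in DA-treated and 129.0 and 131.8 FPKM in untreated WT cells, and to between 81.0 and 89.9 FPKM in DRD5-/- cells. Dcn went from at least 74.0 to at most 45.3 FPKM with DA in WT cells, while Col1a1 went from at most 19.5 to at least 22.2 FPKM, Col1a2 from at most 21.8 to at least 25.7 FPKM and Col3a1 from at most 7.12 to at least 8.57 FPKM. The T cell markers, mostly Cd4, reached 6.86 FPKM, and those of B cells, neutrophils, mast cells and basophils, and dendritic cells stayed at or below 1.51 FPKM in sum. Their part in the changes of the chaperones was not tested.

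**Figure D3:**
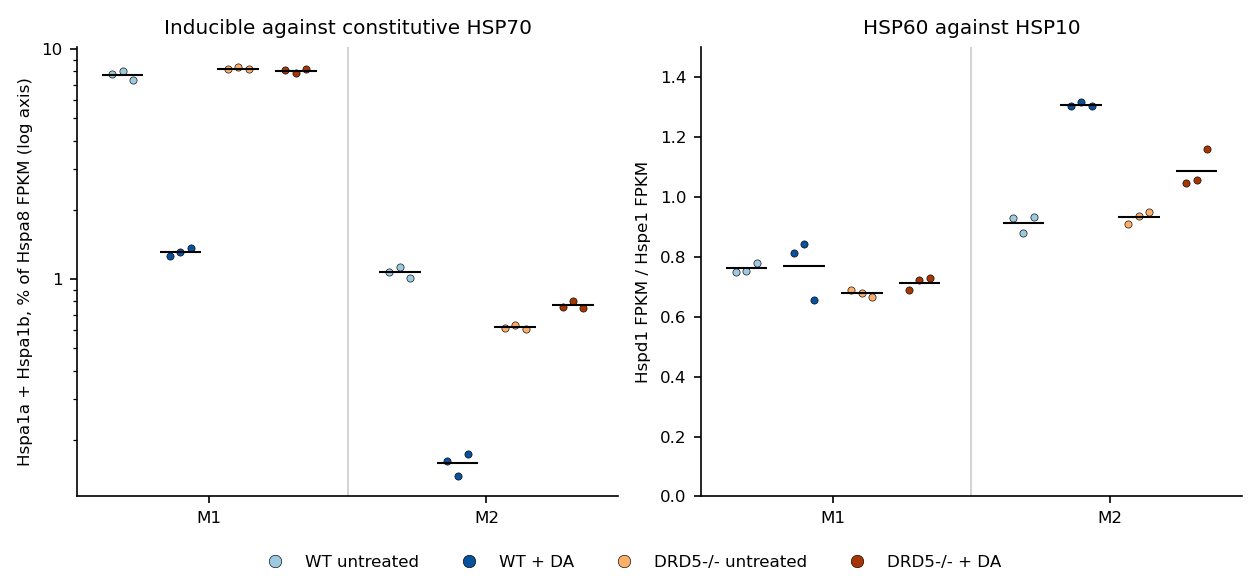
Left, Hspa1a and Hspa1b together as a percentage of Hspa8 in each library, on a log axis. Right, the ratio of Hspd1 to Hspe1, on a linear axis from 0. Points are libraries and lines the means of 3. At the left DA-treated WT cells are lowest in both stimuli, at 1.31% in M1 and 0.158% in M2, and at the right they are highest in M2, at 1.31.

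The balance between inducible and constitutive HSP70 is given for both stimuli. Low Hspa1a and Hspa1b in DA-treated WT M1 cells chose the set, so nothing is read from the M1 part. Hspa1a and Hspa1b together were 7.68 ± 0.352% of Hspa8 in untreated and 1.31 ± 0.0530% in DA-treated WT M1 cells, and 8.21 ± 0.0874% and 8.06 ± 0.175% in the DRD5-/- groups (SD, n = 3 each). In M2 they were 1.07 ± 0.0562% of Hspa8 in untreated and 0.158 ± 0.0178% in DA-treated WT cells, and 0.619 ± 0.0122% and 0.770 ± 0.0305% in untreated and DA-treated DRD5-/- cells (SD, n = 3 each). In both stimuli the DA-treated WT libraries had the lowest share, with no overlap with other groups. In M1 both parts of the ratio were lower with DA in WT cells, and in M2 the inducible pair was lower and Hspa8 higher.

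Beside each other, the untreated WT cells of both stimuli had different chaperone FPKM. M1 and M2 libraries were deposited over different sets of genes, though, and were fitted separately. They may come from separate sequencing and quantification runs, so run and stimulus cannot be told apart. The values are therefore set side by side with no test. Hspa1a averaged 91.2 FPKM in M1 and 3.23 FPKM in M2, and Hspa1b 64.1 and 7.53 FPKM, so that the ratio of Hspa1a to Hspa1b was 1.42 ± 0.0534 in M1 and 0.430 ± 0.0350 in M2 (SD, n = 3 each). Hspb1, Dnajb1, Hsp90aa1 and Hspa8 were also higher in M1, by 2.34, 1.81, 2.06 and 2.01 times. Hspd1, Hspe1 and Hsf1 were higher in M2, by 3.13, 2.61 and 2.75 times, and Hsph1 by 1.29 times.

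RefSeq promoter windows were used here for 7 of the 10 members, 10 windows in all because Dnajb1, Hsph1 and Hspd1 have more than 1 start site, each window running from 250 bases before to 50 after the start. The 2-unit heat shock element, searched as GAANNTTC or TTCNNGAA on both strands, occurred in windows of 6 of the 7 members, all but Dnajb1, and in 15.1% of all 32851 windows. The 3-unit element (GAANNTTCNNGAA or TTCNNGAANNTTC), which holds the 2-unit one, occurred for Hsph1, Hspd1 and Hspe1 and in 0.603% of all windows. For Hspd1 and Hspe1 it is the same stretch, that printed above, read from both sides. The CCAAT box, searched as CCAAT or ATTGG, occurred for 5 of the members and in 37.4% of all windows, and the cAMP response element TGACGTCA for 0 and in 1.79%. A match of letters is a description and not a measured binding site.

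**Figure D4:**
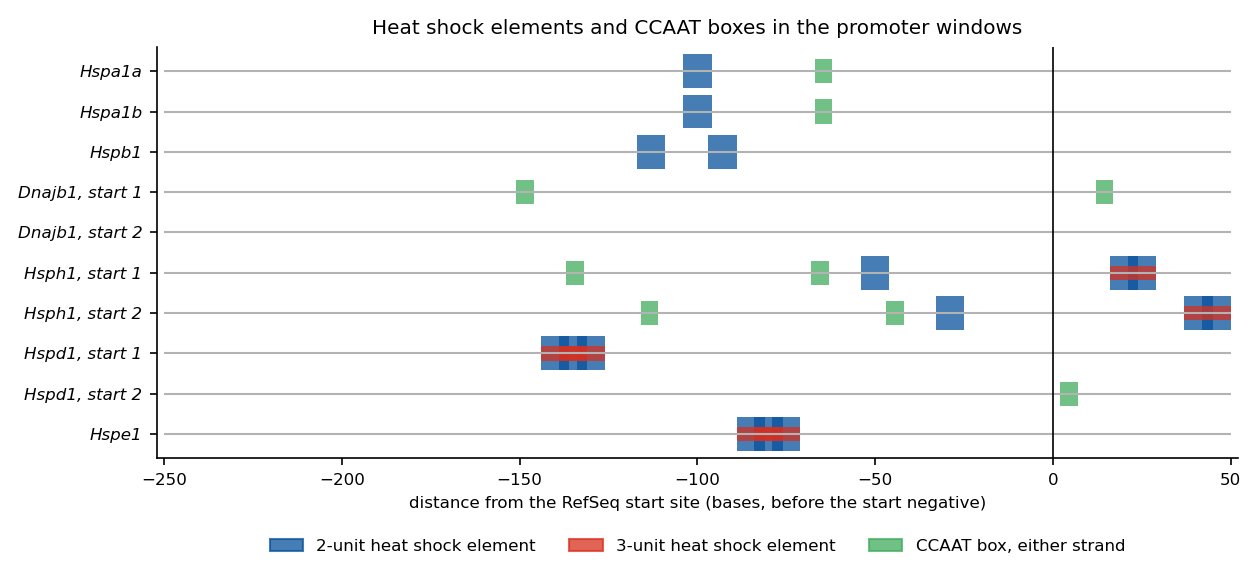
Matches in the 10 promoter windows of 7 members, with the distance from the RefSeq start site in bases on the horizontal axis. Blue boxes are 2-unit heat shock elements, red bars 3-unit ones and green boxes CCAAT boxes. Hspa1a and Hspa1b have the same layout, Hspd1 (start 1) and Hspe1 share 1 cluster of elements seen from opposite sides, and both Dnajb1 windows and the second Hspd1 window hold no heat shock element.

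Other chaperone families, in lists written from textbook knowledge with earlier results of these data known, were lower with DA in M1 and higher in M2 in several cases. Their counts stand beside 12.8% lower and 5.86% higher of all genes in M1 WT cells, and 25.9% higher and 20.4% lower in M2 WT cells. Lists share genes, which are counted in each. Hspa9, Trap1, Dnaja3, Grpel1 and Grpel2 stand in the mitochondrial list and in a family or cochaperone list. Hspa5, Hyou1, Hsp90b1, Dnajb9, Dnajb11 and Sil1 stand in the endoplasmic reticulum list as well. Jun stands among heat-inducible and immediate early genes. In M1 WT cells 9 of the 14 subunits of the TRiC/CCT chaperonin and prefoldin, which fold actin and tubulin, were lower with DA with no overlap and at least 1.2-fold, and 0 were higher (list median log2 change −0.41, all genes −0.067). In M2 WT cells 12 of the 14 rose with DA and 0 fell (median 0.59, all genes 0.031). Cct3 averaged 40.0 ± 2.09 FPKM without and 25.5 ± 0.674 FPKM with DA in M1, and 53.4 ± 0.979 and 106.1 ± 2.31 FPKM in M2 (SD, n = 3 each; M2 log2 change 0.98, limma adjusted p = 2.14e-12). Cct6a and Cct2 had M1 changes of −0.53 and −0.52 and M2 changes of 1.01 and 0.74, Tcp1 an M1 change of −0.47, and Pfdn6 an M2 change of 0.80.

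Of the cochaperones and nucleotide exchange factors, 14 of 28 tested were lower with DA in M1 WT cells and 0 higher (median −0.25; 9 lower with median-of-ratios scaling), and in M2 WT cells 13 of 29 rose and 2 fell (median 0.26). Ahsa1, which activates the ATPase of HSP90, went from 109.3 ± 1.93 to 81.5 ± 0.671 FPKM in M1 (log2 change −0.42) and from 113.7 ± 1.33 to 206.8 ± 3.75 FPKM in M2 (SD, n = 3 each; log2 change 0.86, limma adjusted p = 4.87e-13). Fkbp4, an HSP90 cochaperone of steroid receptors, had the largest M1 change of the list, −0.66, followed by Hspbp1 at −0.50 and Stip1, which links HSP70 to HSP90, at −0.45. Fkbp5, which is induced by glucocorticoids, had the largest M2 change, from 3.07 ± 0.127 to 8.21 ± 0.327 FPKM (SD, n = 3 each; log2 change 1.18, limma adjusted p = 5.06e-09). Nudc and Ppid changed by 0.72 and 0.70 in M2, and the 2 that fell were Unc45a at −0.56 and Bag3, itself a target of HSF1, at −0.26.

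Of the 3 other HSP90 genes, Hsp90ab1 and Trap1 were lower with DA in M1 WT cells and rose in M2 WT cells, as Hsp90aa1 did. Hsp90ab1, the constitutive form, went from 630.4 ± 3.83 to 400.9 ± 2.64 FPKM with DA in M1 WT cells (log2 change −0.65) and from 468.6 ± 5.66 to 681.9 ± 1.76 FPKM in M2 WT cells (SD, n = 3 each; log2 change 0.54, limma adjusted p = 1.50e-11). Trap1, the mitochondrial form, changed by −0.40 in M1 and 0.46 in M2, and the other gene of the list, Hsp90b1, the HSP90 of the endoplasmic reticulum, met neither rule, so that 2 of 3 were lower in M1 and 2 of 3 rose in M2 (medians −0.40 and 0.46). Of the other HSP70 and HSP110 genes, 2 of 9 tested were lower in M1 and 0 higher (median −0.18), namely Hspa9 at −0.57 and Hspa4 at −0.37. In M2, 4 of 8 rose and 1 fell (median 0.22). Hspa9, the mitochondrial HSP70, rose from 90.7 ± 4.60 to 182.0 ± 3.78 FPKM (SD, n = 3 each; limma adjusted p = 6.24e-12), Hspa14 and Hspa4 rose by 0.48 and 0.45, and Hspa4l fell by 0.63 on the log2 scale.

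Mitochondrial chaperones and proteases had 6 of 14 lower and 0 higher in M1 WT cells (median −0.19) and 7 of 14 higher and 0 lower in M2 WT cells (median 0.31). The M1 changes named by the rule were Hspa9, Trap1, Lonp1 at −0.38 and Clpp at −0.36, and the M2 changes Hspa9, Afg3l2 at 0.78, Htra2 at 0.53 and Dnaja3 at 0.49. J-domain genes were mixed. Of 11 tested, 5 were lower and 0 higher in M1 (median −0.21; 3 and 1 with median-of-ratios scaling), with Dnaja1 at −0.77 the furthest, from 63.5 ± 0.485 to 36.9 ± 1.01 FPKM (SD, n = 3 each), and Dnajb2, Dnaja3 and Dnajb6 at −0.38, −0.36 and −0.31. Of 12 tested in M2, 3 rose and 4 fell (median −0.21), with Dnaja3 and Dnaja2 up by 0.49 and 0.37, Dnajb4 by 0.30, and Dnajb5, Dnajb9, Dnajb12 and Dnajb6 at −0.43, −0.42, −0.36 and −0.35.

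The endoplasmic reticulum chaperones, which answer to the unfolded protein response and not to HSF1, had list medians near 0. Of 16 tested, 0 were lower and 1 was higher with DA in M1 WT cells, Pdia4 at 0.32 (list median 0.03, all genes −0.067; 3 higher with median-of-ratios scaling). In M2 WT cells 5 rose, a share near the 25.9% of all genes that rose, and 1 fell (median 0.03), and Pdia4, Manf, Creld2 and Hyou1 rose by 0.52, 0.48, 0.47 and 0.42. Small heat shock protein genes other than Hspb1 had 3 of 8 tested in each stimulus. In M1, Hspb6 was lower by the same rule (log2 change −0.27, list median −0.27), though not with median-of-ratios scaling, and in M2, Cryab fell from 9.42 ± 1.07 to 4.94 ± 0.0954 FPKM (log2 change −0.81, limma adjusted p = 1.20e-07) and Hspb6 from 9.61 ± 0.581 to 5.88 ± 0.217 FPKM (SD, n = 3 each; log2 change −0.62, limma adjusted p = 1.25e-05; list median −0.62).

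Other genes that heat is known to induce went both ways. Their list also held Tcp1, a TRiC/CCT subunit counted above as well, at −0.47 in M1 and 0.54 in M2. In M1 WT cells 4 of 11 tested were lower and 2 higher with DA (median −0.07, and at 0 with median-of-ratios scaling), and in M2 WT cells 5 of 13 rose and 4 fell (median 0.09). Hmox1, heme oxygenase, which oxidants induce as well, was higher with DA in M1, from 3806 ± 87.1 to 9920 ± 186 FPKM (log2 change 1.38), and rose in M2 from 200.8 ± 2.73 to 2904 ± 30.7 FPKM (SD, n = 3 each; log2 change 3.85, limma adjusted p = 1.41e-20). Unlike the members it also rose with DA in DRD5-/- M2 cells, by 3.03 (limma adjusted p = 3.49e-19). Cacybp was at −0.39 in M1 and 0.77 in M2, Gadd45b at −0.35 and −0.70, and Dedd2 at −1.05 in M2. In M1 the second higher gene was Jun at 0.26, and in M2 the others that fell were Ier5 at −0.69 and Zfand2a at −0.45. The heat shock factors other than Hsf1 and their regulators had 1 of 7 lower in M1, Vcp at −0.33 (median −0.11; 0 with median-of-ratios scaling), and 2 of 7 that fell in M2, Ep300 and Sirt1, each at −0.47 (median −0.21). Immediate early genes, which respond within minutes to handling and to signals, had 8 of 13 lower and 1 higher in M1 (median −0.33) and 4 of 14 rose and 4 fell in M2 (median 0.11), shares near the 25.9% and 20.4% of all genes. Btg2 changed by −0.49 in M1 and −2.21 in M2, Junb, Nr4a1 and Ier2 by −0.45, −0.43 and −0.37 in M1, and Fosl1, Jund and Atf3 by 0.83, −0.57 and −0.42 in M2.

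Calls in these lists with DA in DRD5-/- cells stand beside those over all genes. In M1 limma called 0 genes in any of them, as it did over all genes. In M2 it called 4.02% of all genes. Of the lists it called 1 of 12 J-domain genes, Dnajb14 (log2 change 0.33, limma adjusted p = 8.45e-05). It also called 1 of 7 heat shock factors and regulators, Ep300 (log2 change 0.31, limma adjusted p = 4.32e-05), and 1 of 13 heat-inducible genes, Hmox1. It called 0 genes of the other lists, and nothing is read from these counts. Between untreated genotypes in M2, limma called 5.51% of all genes. Of the lists, Cryab and Hspb6 were lower in DRD5-/- cells, at −0.78 and −0.49, and Hmox1 and Gadd45b were higher, at 0.27 and 0.28. The immediate early gene Btg2 was lower, at −0.37.

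**Figure D5:**
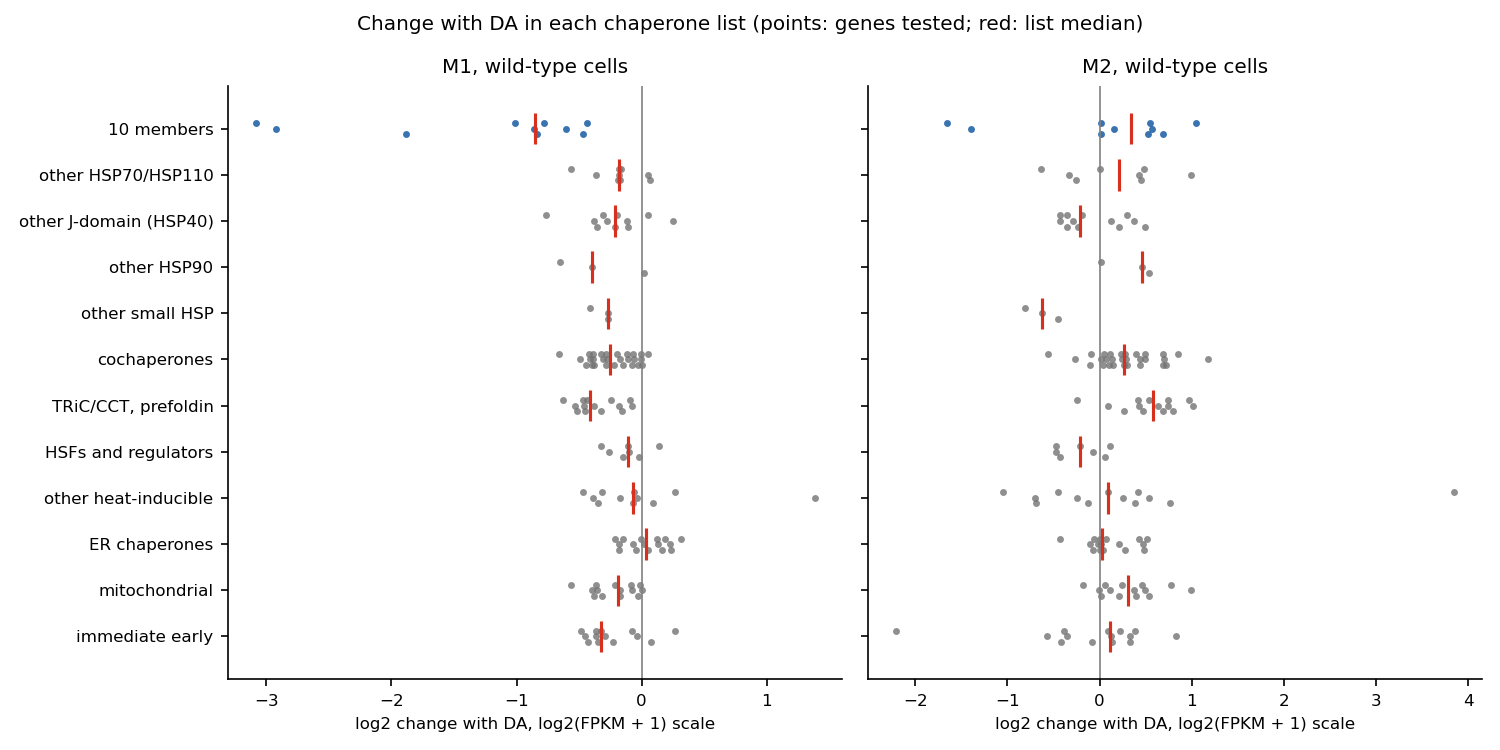
Log2 change with DA in WT cells for each tested gene of 12 lists, in M1 at the left and M2 at the right, on the log2(FPKM + 1) scale. Points are genes and red lines list medians. The medians of the TRiC/CCT, cochaperone, HSP90, mitochondrial, other HSP70/HSP110, other heat-inducible and immediate early lists are below 0 in M1 and above 0 in M2. So are the medians of all tested genes, which are not drawn, at −0.067 and 0.031. Those of the members are −0.85 and 0.35, and the horizontal axes differ between the panels.

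The likeness of the members to each other lay mostly between groups. Over the 12 M1 libraries the 45 pairs of members had Pearson correlations of log2(FPKM + 1) from 0.801 to 0.999, and after group means were subtracted they ran from −0.742 to 0.586 with a median of 0.014. Over the 12 M2 libraries they ran from −0.878, for Hspa1a and Hspd1, to 0.988, and after group means were subtracted from −0.695 to 0.735. Hspa1a and Hspa1b had an r of 0.959 in M2. The points share libraries and groups, so these are descriptions. Low Hspa1a, Hspa1b and Hspb1 in DA-treated WT M1 cells chose the set. High M1 correlations before group means were subtracted were therefore partly fixed in advance, and nothing is read from them. The 5 genes outside the members most like Hspa1a over the M1 libraries were Psat1, Itgal, Enpp2, Il12b and Stip1, with r from 0.996 to 0.998. Over the M2 libraries they were H2-M2, Rab6b, Zfand2a, Edc4 and Fkbp9, with r from 0.975 to 0.990. With group means subtracted they were Armc5, Cep250, Nhlrc2, Spred2 and H2-Q9 in M1 (r from 0.903 to 0.937). In M2 they were 1700094D03Rik, Rnf141, Orai1, H2-M2 and Ctse (r from 0.883 to 0.945). H2-M2 stood in both M2 lists, but its M2 group means ran only from 0.810 to 2.56 FPKM, and Hspa1a was low there too. The highest r among 10040 or 10735 tested genes over 12 libraries can be high by selection alone, so nothing is read from these names.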

How the data were processed

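Libraries of BMDMs were sequenced on a BGISEQ-500. The study's methods state that filtered reads were mapped with HISAT2 to GRCm38.p5, counted and normalized to FPKM; the submitters' processing notes name Bowtie2 2.2.5 and GRCm38.p6. The authors deposited FPKM with up to 2 decimals and no counts, so the absolute depth of each library is unknown. The lowest steps of the values were alike across libraries (within 1.07-fold), and no 2 libraries were identical. The estimate of these steps rested on few genes, from 1 in replicate 1 of DA-treated DRD5-/- M2 cells to at most 20 in any library. The authors' length model and treatment of shared reads remain in every value.

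Groups came from the labels. The 10 members, the gene lists and the comparisons were chosen with earlier results of these data known. For each stimulus, genes with at least 1 FPKM in at least 3 of 12 libraries (10040 in M1, 10735 in M2; all 10 members in both) entered 1 linear model of 4 group means per stimulus, fitted to log2(FPKM + 1) by limma 3.58.1 under R 4.3.3 with a prior variance that follows intensity; Benjamini-Hochberg adjustment ran over all genes. A call needed an adjusted p under 0.001 and 1.2-fold, the study's own limits. M1 contrasts that involve WT cells were described by whether groups overlapped. A simulated table with known changes was used to test the code. Of each further list, up to 4 genes with the largest change past the limit are named with DA in WT cells; other list members named as part of a small count were chosen after their values were seen. Alternatives were another pseudocount, scaling, filter, block, threshold, set of libraries, and the summed Hspa1 pair. Promoter windows are from RefSeq, gene positions from GENCODE M21. Python 3.11.15, pandas 2.3.3, numpy 2.4.6 and matplotlib 3.10.9 were used for tables and figures.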

Additional observations from a re-analysis of the deposited data

Results flagged for a closer look

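The change with DA differed between WT and DRD5-/- M2 BMDMs by limma's test of the difference itself for 7 of the 10 genes. The log2 change in WT minus that in DRD5-/- cells, with both changes in that order in parentheses, was −1.80 for Hspa1b (−1.65 and 0.14), −1.55 for Hspa1a (−1.40 and 0.16), 0.53 for Hsp90aa1 (0.57 and 0.042), 0.62 for Hsph1 (0.69 and 0.071), 0.67 for Hspa8 (0.55 and −0.12), 0.80 for Hspe1 (0.53 and −0.27) and 1.09 for Hspd1 (1.04 and −0.049). Of all genes, 43.2% passed the same test.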

How the results depend on the processing

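Of 1620 recomputed values for single genes, 1523 kept their direction and their side of the threshold or moved by less than the spread between libraries, 13 were no longer called, 7 became called, 33 changed sign and 44 moved by more. In M1 comparisons without a test, a change of sign was counted only where the main change was at least 1.2-fold. Among the 22 called results for single genes 0 changed sign, and 9 were called under every alternative; the other 13 were lost where a 2-fold change was required, by construction. That limit left 3 members called in M2 for DA in WT cells, for the difference between genotypes in the change with DA and between DA-treated genotypes, and 0 between untreated genotypes. Of all 10735 genes it left 626, 750, 741 and 36 called, in the same order. At an adjusted p under 0.05, 1 member (Hspe1) was called for DA in DRD5-/- M2 cells, beside 719 genes, as 1 was with median-of-ratios scaling, beside 420 genes. Between untreated M2 genotypes 2 were called at that limit, beside 895 genes, as 2 were with the compared groups alone, beside 446 genes. Hspb1 was also called at that limit between DA-treated M2 genotypes (log2 difference 0.41, limma adjusted p = 0.0166). With median-of-ratios scaling the median log2 change of the 10 genes in M1 went from −0.85 to −0.78 for DA in WT cells, from −0.76 to −0.69 between DA-treated genotypes and from −0.77 to −0.70 for their difference in change. The cause of these shifts was not tested.

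With 0.1 as pseudocount, the M1 log2 change of Hspb1 with DA in WT cells was −3.17 and the M2 change of Hspa1a −2.29, in groups with values under 1 FPKM. Without filter, without trend and with the replicate number as a block, the counts of called members stayed as reported: 0 and 0 for DA in DRD5-/- M1 and M2 cells, and in M2 7 for DA in WT cells, 1 between untreated genotypes, 7 between DA-treated ones and 7 for the difference in change. Labels give no meaning to the replicate numbers, and deviations from group means correlated between same-numbered libraries by −0.178 to 0.179, so the numbers were not taken as pairs.

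All counted sign changes were in uncalled results of at most 0.15 in size. They were Hsp90aa1 (0.000) with quantile normalization and Hspa1a (−0.008) when summed with Hspa1b for DA in DRD5-/- M1 cells; Dnajb1 in M2 with DA in WT cells (−0.006 with median-of-ratios scaling, −0.048 with quantile normalization), between DA-treated genotypes (−0.016 and −0.050) and for the difference in change (−0.009 with quantile normalization); Hspb1 with DA in DRD5-/- M2 cells (0.021 with a pseudocount of 0.1); and Hspa8 between untreated M2 genotypes (0.051 with median-of-ratios scaling). Leaving out 1 library at a time gave ranges across 0 for DA in DRD5-/- M1 cells in Dnajb1 (−0.074 to 0.002), Hsph1 (−0.038 to 0.025) and Hsp90aa1 (−0.046 to 0.005), for DA in WT M2 cells in Hspb1 (−0.060 to 0.14) and Dnajb1 (−0.006 to 0.039), for DA in DRD5-/- M2 cells in Hspb1 (−0.18 to 0.15), between untreated M1 genotypes in Dnajb1 (−0.015 to 0.055), between untreated M2 genotypes in Dnajb1 (−0.010 to 0.023) and Hspa8 (−0.010 to 0.009), and for the M2 difference in change in Hspb1 (−0.13 to 0.20). Leaving out libraries moved no other call than that of Hsf1, called for the M2 difference in change without replicate 3 of DA-treated DRD5-/- cells (0.29, limma adjusted p = 0.000538), so 7 to 8 members were called there. The M1 medians without 1 library ran from −0.91 to −0.81 for DA in WT cells.

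Depth was unknown and no counting error is given. With 3 libraries a group, the intervals of Hspb1 spanned more than 0.5 log2 units.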
